A study of Bos taurus with 6 samples.

Results

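Of the 9 receptors of noradrenaline, serotonin, dopamine and neuropeptide Y described here, 8 were among the 25444 genes counted in intramuscular fat (IMF) of cattle, and NPY1R was not analysed here. The others were ADRB1, ADRB3, ADRA1A, ADRA2A, HTR2A, HTR2B, DRD1 and DRD2, taken by gene symbol. They had been picked with their counts known, so the values are descriptions and carry no test. The animals were Chinese Qinchuan males aged 24 months, weaned at 3 months and offspring of a single sire. Steers had been castrated surgically at 6 months, and bulls were intact. Fat was dissected from the sternomandibularis, a neck muscle, and RNA was pooled within each group, which left 1 library of steers and 1 of bulls. The design text gives 6 animals behind each pool, whereas the sample labels give 3. No spread between animals could therefore be measured, and every interval below is a 95% interval for counting error only. In pooled tissue, fewer cells of a type and less RNA per cell cannot be told apart.

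These receptors sit in the cell membrane and act through G proteins. The beta-adrenergic receptors and DRD1 couple to Gs and raise cyclic AMP, which in fat cells drives lipolysis, the release of stored fatty acids. ADRA2A, DRD2 and NPY1R couple to Gi and lower cyclic AMP, so that alpha-2 receptors are known in fat as the brake to the beta receptors. ADRA1A, HTR2A and HTR2B couple to Gq and act through phospholipase C, and HTR2A is best known from brain, blood vessels and platelets.

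The table held 12677375 counts in steers against 9868415 in bulls. Adipocyte transcripts were present in both pools, with a count for 11 of 11 markers in each, among them ADIPOQ at 4513 counts in steers against 6651 in bulls. These markers went both ways, CIDEA with 998 and 136 counts and FABP4 with 3951 and 7574. Muscle transcripts were also present, ACTA1 (skeletal muscle actin) with 13852 and 19910 counts. The library of steers, which are animals without testes, also held transcripts known from haploid germ cells (spermatids). PRM1, the protamine that packs sperm DNA, had 328 counts in steers against 0 in bulls. Of a list of 29 haploid germ cell genes written after the counts had been seen, 25 were in the table and 18 had at least 10 counts over both libraries. Among these, 16 were more than 2-fold higher in steers and 0 were lower, beside 6.73% and 11.5% of all genes with at least 10 counts. The list summed to 148 CPM (counts per 1000000 counts of the table) in steers and 62.3 in bulls, where 19 of the 25 genes were at 0, PRM1, TNP1, ODF1 and GAPDHS among them. PGK2 (342 and 221 counts) and ODF2 (489 and 382), which lay within 2-fold, held most of the counts in bulls. For the 10 list genes whose counts had prompted the list the sums were 901 counts in steers against 0 in bulls. These 10 reached the minimum through steers alone and their direction was fixed by the choice. The 16 higher genes are therefore not read against the share of all genes. Of the other 19, 8 had at least 10 counts and 6 of these were past 2-fold higher in steers. Several of the 6 also reached the minimum through steers, such as TNP1 (29 and 0 counts), ACRV1 (15 and 0) and AKAP4 (37 and 3). The 6 are therefore not read against the share of all genes either.

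**Figure D1:**
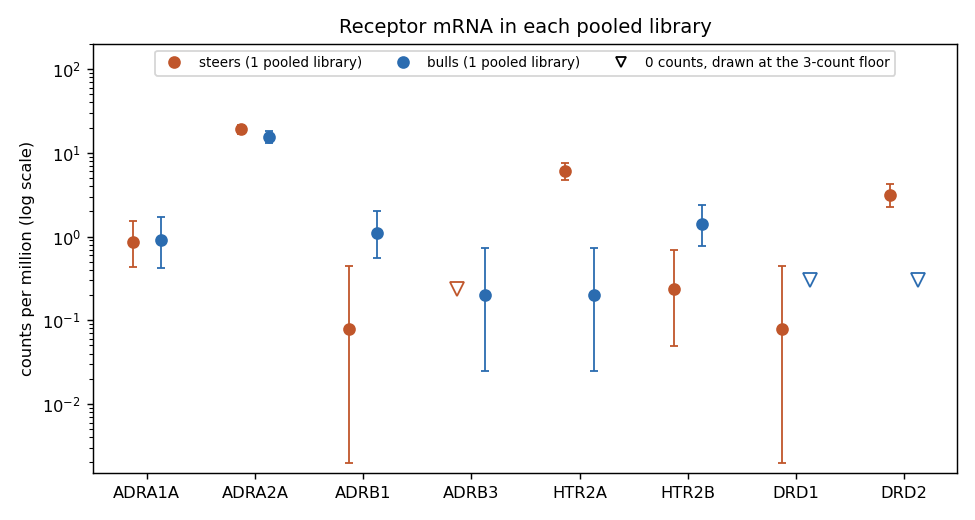
CPM (log scale) of 8 receptor genes in both pooled libraries, steers and bulls, with exact Poisson 95% intervals for counting error as bars. Open triangles mark 0 counts and stand at the level of 3 counts. HTR2A and DRD2 lie higher in steers, ADRB1 and HTR2B higher in bulls, while ADRA1A and ADRA2A lie within 2-fold.

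HTR2A and DRD2 were the receptors more than 2-fold higher in steers, while ADRB1 and HTR2B were more than 2-fold higher in bulls. A gene was taken as past 2-fold when its ratio of scaled counts exceeded 2 in either direction, among genes with at least 10 counts over both libraries. Of the 8 receptors, 6 reached that minimum. Past 2-fold lay 2 of them higher in steers, beside 6.73% of the 14540 genes that reached it, and 2 lower, beside 11.5%. Under a stricter rule, with the whole counting interval past 2-fold, 2 were higher, beside 2.59% of all genes, and 0 lower, beside 5.31%. With total counts as the scaling the median of all genes moved to a log2 ratio of -0.23, and 24.1% rather than 36.8% of the genes past 2-fold were higher in steers. Since the receptors were chosen on these values, nothing is read from their counts against the background. Raw counts also rise with transcript length, so levels are compared between libraries and not between receptors.

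HTR2A, the Gq-coupled serotonin receptor, had 77 counts in steers against 2 in bulls, or 6.07 and 0.203 CPM. Its scaled level was 35.4-fold higher in steers, with a counting interval of 9.47 to 297. On the log2 scale the ratio was 5.14 (3.24 to 8.22), and it was 4.91 with total counts as the scaling. The ratio of HTR2A ranked 7 among all 14540 genes, with genes at 0 placed at a floor of 3 counts in that library. The 2 counts of HTR2A in bulls lie below that floor but were used as they stand. The rank therefore favours HTR2A over genes at 0 in bulls. GSG1, with 98 counts in steers against 0 in bulls, was held at a log2 bound of 4.91, below the 5.14 of HTR2A. With a prior of 5 counts the log2 ratio of HTR2A was 3.43, so nothing is read from its rank. The protein-coding genes next to HTR2A in the RefSeq order of a later cattle assembly did not share its ratio. ESD had 463 counts in steers against 358 in bulls, a log2 ratio of 0.25, and SUCLA2 had 298 and 203, a log2 ratio of 0.43. The 3 genes with the counts most like those of HTR2A, by Euclidean distance in log2(count + 0.5) over 2 libraries, were FAM134C with 53 and 2 counts, LOC785805 with 52 and 2, and LOC790208 with 103 and 3.

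DRD2, the Gi-coupled dopamine receptor, had 40 counts in steers against 0 in bulls. The 40 counts amount to 3.16 CPM (2.25 to 4.30), while the floor of 3 counts stands at 0.304 CPM in bulls. Against that floor DRD2 was at least 12.3-fold higher in steers, a bound that leaves out the counting error of the 40 counts. The counting interval of the ratio began at 9.51-fold. It ranked 16 by steer count among the genes at 0 in bulls, of which 109 had at least 10 counts in steers. In the other direction, 69 genes had 0 counts in steers and at least 10 in bulls. Of the 109 genes, 12 belong to the haploid germ cell list, and 10 of those ranked above DRD2. They are the same 10 genes whose counts had prompted the list, so nothing is read from their rank. The genes with counts most like those of DRD2 were SMCP, with 40 counts in steers against 0 in bulls, and LOC100849448 and LOC518623, each with 41 and 0. SMCP encodes a protein of the sperm mitochondrial capsule. Among the neighbours of DRD2 in the same gene order, ANKK1 had 0 counts in both libraries, TMPRSS5 had 7 and 1, TTC12 had 55 and 18, and ZW10 had 89 and 122. TTC12, a gene of ciliary and sperm tail dynein assembly, had a log2 ratio of 1.49, and ZW10 one of -0.58.

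The haploid germ cell transcripts, HTR2A and DRD2 had the higher counts in the same library, and the part of those transcripts in the HTR2A and DRD2 values was not tested. With 1 library per group, neither value could be recomputed without that library. Markers of earlier germ cells were scarce, 9 genes summing to 19 counts in steers against 2 in bulls, DAZL, DMC1, SPO11 and PIWIL1 at 0 in both. Over 10 genes of testis somatic cells the sums were 171 and 38 counts. LHCGR, the receptor of luteinizing hormone, supplied 119 and 20 of them, and CYP17A1, an enzyme of androgen synthesis, 34 and 7. CYP11A1 and HSD17B3, of steroid synthesis, were at 0 in both libraries.

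**Figure D2:**
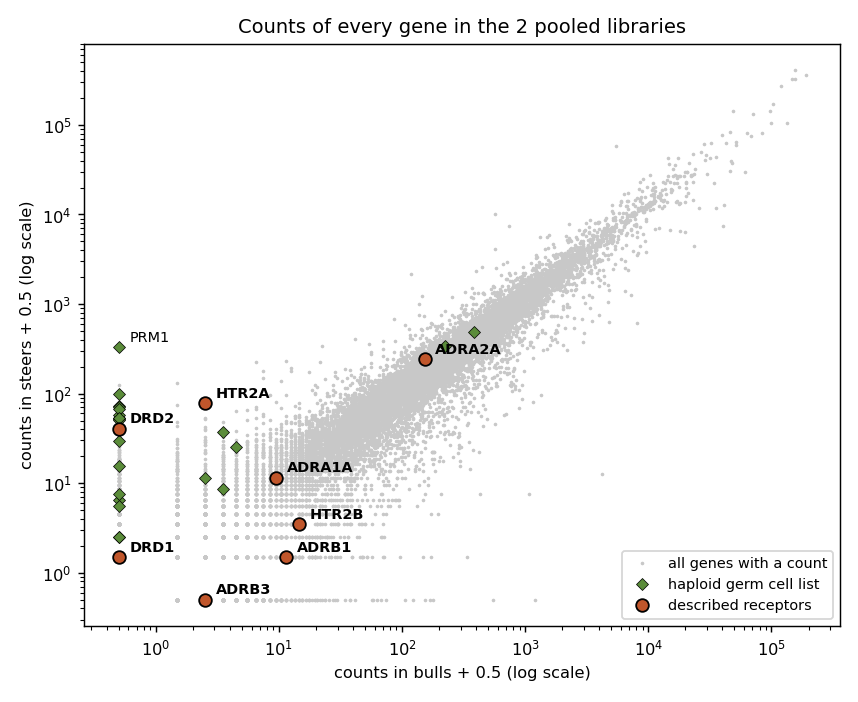
Counts + 0.5 of each gene with a count in either library, bulls on the x axis and steers on the y axis, both on log scales. Circles mark the described receptors and diamonds the haploid germ cell list; DRD2, with 40 counts in steers, stands in the column of genes at 0 in bulls together with PRM1, and HTR2A, with 77, stands beside that column.

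ADRB1, a beta receptor of heart and fat, had 1 count in steers and 11 in bulls, or 0.0789 and 1.11 CPM. Its log2 ratio was -3.58, with a counting interval from -9.01 to -0.80, so the interval reached inside the 2-fold limit. HTR2B, a Gq-coupled serotonin receptor, had 3 counts in steers against 14 in bulls, or 0.237 and 1.42 CPM, and a log2 ratio of -2.34 (-4.78 to -0.50). Both were lower in steers on few reads. Among the 1375 genes whose total count lay between 0.5 and 2 times that of ADRB1, 30.3% were past 2-fold lower in steers. For HTR2B the corresponding share was 28.6% of 1917 genes. Past 2-fold higher were 7.41% of 3117 such genes for HTR2A and 13.7% of 2550 for DRD2. The receptors were chosen with their counts known, so nothing is read from these shares. ADRB3, the beta receptor known from brown fat of rodents, had 0 counts in steers against 2 in bulls. DRD1, the Gs-coupled dopamine receptor, had 1 and 0. For ADRB3 and DRD1 no ratio is given, since a level of 3 counts, 0.237 CPM in steers and 0.304 in bulls, was not exceeded.

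ADRA2A, the alpha-2 receptor that restrains lipolysis, was the receptor with the most reads of the 8, 243 in steers and 152 in bulls. It stood at 19.2 CPM in steers and 15.4 in bulls, a log2 ratio of 0.55 (0.26 to 0.86) that lay within 2-fold, and 0.32 with total counts. ADRA1A, the alpha-1 receptor known for constriction of vessels, had 11 and 9 counts and a log2 ratio of 0.17 (-1.24 to 1.62). At this depth no difference of ADRA1A was detectable, and with total counts its ratio was -0.07.

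**Figure D3:**
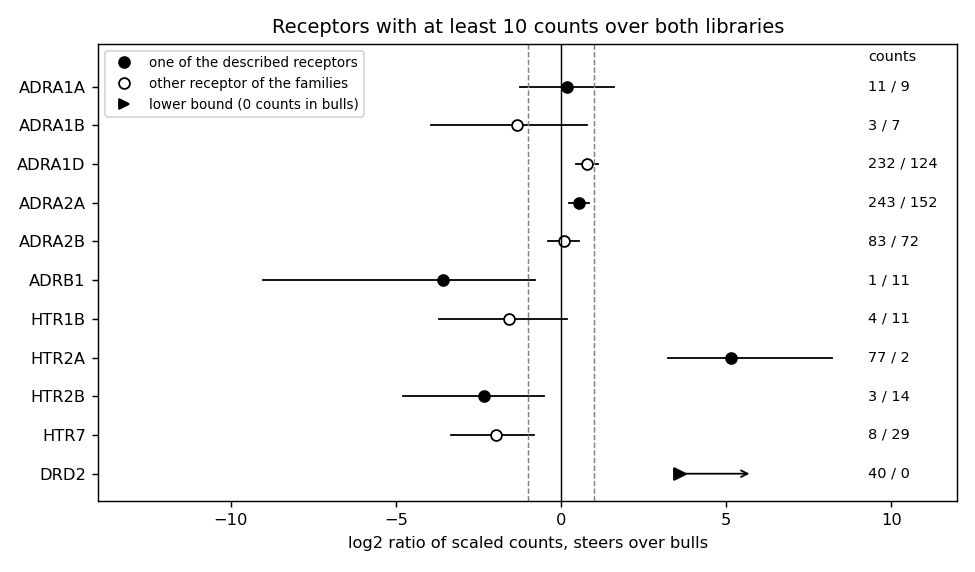
Log2 ratio of scaled counts, steers over bulls, for 11 receptors of the adrenergic, serotonin and dopamine families with at least 10 counts, with 95% counting intervals as bars and the counts in steers and bulls at the right. Filled symbols are the receptors described here, open circles the other family members, dashed lines mark 2-fold, and the triangle with an arrow is the lower bound of DRD2; HTR2A and DRD2 lie to the right of the lines and the intervals of ADRB1 and HTR2B end inside them.

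The other receptors of the 4 families gave a setting for these values. Of 23 considered, 18 were in the table and 5 had at least 10 counts, of which 0 were past 2-fold higher in steers and 3 were lower (60%, beside 11.5% of all genes). Their median log2 ratio was -1.34, beside 0.01 over all genes. HTR7, a Gs-coupled serotonin receptor, had 8 counts in steers against 29 in bulls, a log2 ratio of -1.98 (-3.32 to -0.82). HTR1B, coupled to Gi, had 4 and 11 counts and a ratio of -1.58 (-3.69 to 0.17). ADRA1B had 3 and 7 counts and a ratio of -1.34 (-3.93 to 0.79). None of these 3 intervals lay wholly past 2-fold. Among genes with 0.5 to 2 times the total count of HTR7, HTR1B and ADRA1B, 23.8%, 29.6% and 30% were past 2-fold lower in steers.

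The serotonin family, HTR2A included, summed to 97 counts in steers against 58 in bulls, a log2 ratio of 0.62 (0.14 to 1.11). Without HTR2A, left out after its counts had been seen, the sum was lower in steers. The 12 other receptors had 20 counts in steers against 56 in bulls, a log2 ratio of -1.61 (-2.42 to -0.85), and 7 of them had no read in either library. HTR2B, HTR7 and HTR1B held most of these counts, while HTR4 had 3 and 2 and HTR6 had 2 and 0, too few for a ratio. In the dopamine family DRD2 held 40 of the 41 counts of steers, and DRD1 and DRD3 together had 1 count in steers and 2 in bulls. The neuropeptide Y receptors NPY2R and NPY5R had 0 counts in both libraries, and PPYR1 had 0 and 2.

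In the adrenergic family the summed counts of the alpha receptors were higher in steers. The 5 alpha receptors summed to 572 and 364 counts, or 45.1 and 36.9 CPM, a log2 ratio of 0.53 (0.34 to 0.72), and 0.29 with total counts. ADRA1D, an alpha-1 receptor of vessels, had 232 and 124 counts and a log2 ratio of 0.78 (0.46 to 1.11). ADRA2B, an alpha-2 receptor, had 83 and 72 counts and a ratio of 0.08 (-0.39 to 0.56). The largest parts of the alpha sum were therefore those of ADRA2A and ADRA1D. The beta receptors ADRB1 and ADRB3, given above, had 12 and 2 counts over both libraries. The alpha sum was formed after the counts had been seen.

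Of the genes that make, carry and break down the ligands, SLC6A2 was higher in steers and SLC18A2 lower. Of 22 listed, 10 had at least 10 counts, 1 (10%) was past 2-fold higher in steers and 1 (10%) lower, near the 6.73% and 11.5% of all genes, with a median log2 ratio of -0.29. SLC6A2, the noradrenaline transporter, was the higher one, with 268 counts against 97 and a log2 ratio of 1.34 (1.00 to 1.69). SLC18A2, which loads monoamines into vesicles, had 2 and 9 counts and a ratio of -2.29 (-5.54 to -0.02). TH, the first enzyme of catecholamine synthesis, had 28 and 42 counts, DBH, TPH1 and NPY had 0 in both libraries, and SLC6A4, the serotonin transporter, had 25 and 33. The summed levels of nerve and Schwann cell markers were higher in steers as well. The summed level of 11 nerve genes was 32.7 CPM in steers and 17.7 in bulls, 1 of 4 with at least 10 counts being past 2-fold, STMN2 with 174 and 17 counts. Without STMN2 the nerve sums were 19.0 and 16.0 CPM, UCHL1 had 42 and 46 counts, and SNAP25, NEFL and ELAVL4 were at 0 in both. For 6 Schwann cell genes, each with a count in both libraries, the sums were 435 and 358 CPM, and 1 was past 2-fold higher, MBP, of the myelin sheath, with 162 and 64 counts. The other 5 lay within 2-fold. PMP22, with 3467 and 2114 counts, and S100B, with 1791 and 1292, held most of the Schwann sum, while NGFR had 50 and 46. The part of nerve tissue in the SLC6A2 value was not tested.

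**Figure D4:**
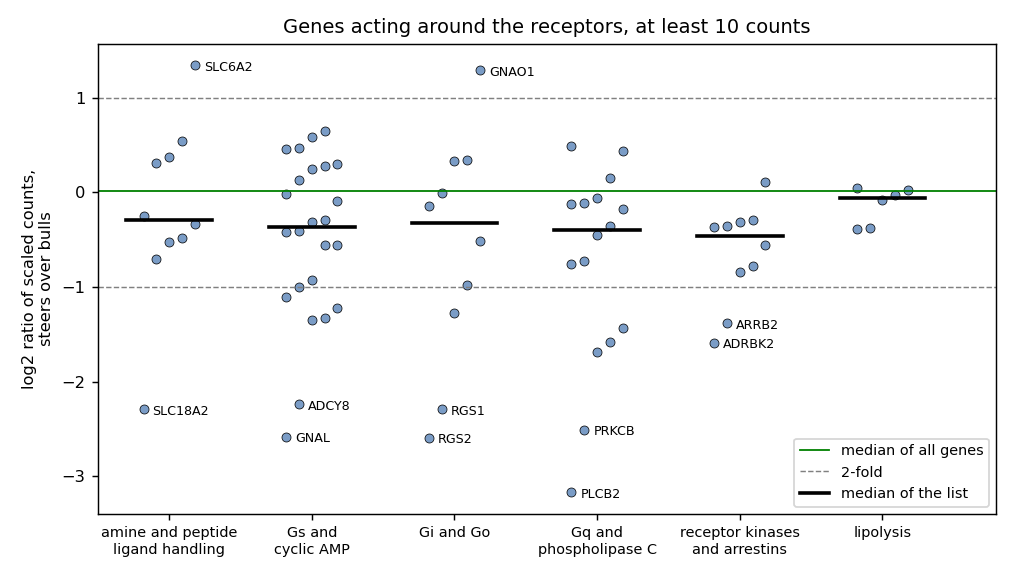
Log2 ratio of scaled counts, steers over bulls, of genes with at least 10 counts in 6 lists of genes that act around the receptors, each point a gene and each black bar the list's median. The green line is the median of all genes and dashed lines mark 2-fold; more points lie below the lower line than above the upper one, and the lipolysis genes stay near 0.

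Downstream of the receptors, genes past 2-fold were mostly lower in steers. Over all the signalling lists, other receptors and ligand genes included, 81 genes had at least 10 counts, of which 2 (2.47%) were past 2-fold higher and 20 (24.7%) lower, beside 6.73% and 11.5% of all genes. Their median log2 ratio was -0.36.

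In the Gs and cyclic AMP arm, 0 of 24 genes were higher and 6 (25%) lower, beside 6.73% and 11.5% of all genes. GNAL, the Gs-type alpha subunit of olfactory and striatal neurons, had 4 counts in steers against 22 in bulls, a log2 ratio of -2.58 (-4.58 to -1.02). ADCY8, an adenylyl cyclase, had 6 and 26 counts and a ratio of -2.24 (-3.81 to -0.92), and the phosphodiesterase PDE4D had 27 and 63 and a ratio of -1.34 (-2.05 to -0.67). In the Gi and Go arm 1 of 10 genes (10%) was higher and 3 (30%) were lower, beside the same shares of all genes. GNAO1, the Go alpha subunit, had 24 and 9 counts, a ratio of 1.29 (0.14 to 2.58). The regulators of G-protein signalling RGS2, RGS1 and RGS19 were the lower ones, with 13 and 72, 352 and 1586, and 138 and 307 counts, and log2 ratios of -2.59, -2.29 and -1.28.

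In the Gq arm, to which HTR2A and HTR2B couple, 0 of 16 genes were higher and 5 (31.2%) lower, beside 6.73% and 11.5% of all genes. PLCB2, a phospholipase C, had 22 and 182 counts, a log2 ratio of -3.17 (-3.88 to -2.53), PRKCB, a protein kinase C, had 32 and 167, a ratio of -2.51 (-3.10 to -1.95), and GNA15, a Gq-class alpha subunit, had 82 and 243, a ratio of -1.69 (-2.07 to -1.32). Of the receptor kinases and arrestins, which switch occupied receptors off, 0 of 10 were higher and 2 (20%) lower, beside the same shares of all genes. ADRBK2, a kinase of beta receptors, had 79 and 218 counts and a log2 ratio of -1.59 (-1.98 to -1.21), and ARRB2, an arrestin, had 183 and 439 and a ratio of -1.38 (-1.64 to -1.13). PLCB2, PRKCB, GNA15 and RGS1 are known as genes of blood cells. Leukocyte markers were lower in the same direction, 8 of the 10 with at least 10 counts past 2-fold and 0 higher, and 11 of them summed to 1681 CPM in steers and 6191 in bulls, with CD79B at 0 in both. The part of leukocytes in these lower values was not tested.

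The listed lipolysis genes that were counted, on which catecholamines act in fat cells, lay within 2-fold, as did 81.7% of all genes. Of 7 listed, PNPLA2 was not found by name among the genes counted, and 6 had at least 10 counts. Of these 6, 0 were past 2-fold in either direction, with log2 ratios from -0.38 to 0.05 and a median of -0.05. LIPE, hormone-sensitive lipase, had 5234 counts in steers against 4890 in bulls. These genes were named after their values had been seen.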

How the data were processed

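The mRNA table, as deposited by the authors, holds raw read counts per gene from Ion Proton libraries of pooled IMF RNA. The authors removed adaptors and low-quality reads and used MapSplice for alignment to the bovine genome. How reads were assigned to genes, and whether by strand, is not given in the sources used here, so reads of overlapping genes cannot be told apart, and the submitters' processing notes name a human build (GRCh37.p13). Libraries were grouped by their titles. Size factors by the median of ratios, computed in numpy 2.4.6, were 1.04 (steers) and 0.959 (bulls). Intervals are 95% Clopper-Pearson intervals of the share of reads in steers, from scipy 1.17.1, carried to the ratio, and exact Poisson intervals for a level. They cover counting error only and take reads as independent, so they are too narrow where several reads stem from 1 molecule. For ratios, 0 counts are replaced by a floor of 3 in the library concerned, and no ratio is given where neither library exceeds 3 counts. Other counts below that floor are used as they stand. With 1 library per group no test was made. EBSeq, the study's tool, was not used.

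Members and lists were chosen with earlier results of these data known. Lists were of the receptor families, ligand handling, the Gs, Gi and Gq arms, receptor kinases and arrestins, lipolysis, and markers of adipocytes, muscle, smooth muscle, endothelium, nerve, Schwann, neuroendocrine, epithelial and mast cells, leukocytes and fibroblasts. The germ cell and testis lists were added after the counts had been seen. Named are all members, from each list up to 3 genes past 2-fold per direction, and, for members whose whole interval is past 2-fold, the 3 genes nearest in counts. Other genes were named after their values had been seen. Of the 25444 identifiers, 17015 are symbols in a RefSeq table of a later assembly, which gave only names and gene order. The calculation was tested on simulated counts. Alternatives were other scalings, priors, count minimums, and a rule on the whole interval. Small RNA counts were not used. Some single genes were left out of the lists and are not reported.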

Additional observations from a re-analysis of the deposited data

How the results depend on the processing

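No paired analysis was possible because the mRNA data hold 1 library per group, and no library could be left out for the same reason. HTR2A and DRD2 were past 2-fold higher in steers under all 7 alternatives run. The 2 receptors lower in steers fell to 0 when at least 30 counts were required, which left 3 receptors, and to 0 when the whole counting interval had to lie past 2-fold. Under that interval rule 376 of all genes were higher and 772 lower, in place of 979 and 1679, and of the signalling genes 1 was higher and 10 were lower, in place of 2 and 20. With at least 30 counts 596 of all genes were higher. A prior of 5 counts left 1 signalling gene higher. With total counts, 705 of all genes were higher and 2221 lower. The log2 ratio of DRD2 with a prior of 5 counts was 3.05, and the other 23 ratios of receptors under other scalings or priors stayed within their counting intervals. Depth limits ADRB1, ADRB3, ADRA1A, HTR2B and DRD1 most, each with at most 20 counts.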

Other observations

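Other cell markers also differed between the pools. Of 11 epithelial and gland genes in the table, 5 had at least 10 counts and 4 of these were past 2-fold higher in steers, with 0 lower, beside 6.73% and 11.5% of all genes. KRT8, a keratin of simple epithelia, had 148 counts in steers and 7 in bulls, KRT19 had 102 and 19, and KRT18 had 77 and 20, while KRT14 was at 0 in both. The epithelial list summed to 28.9 CPM in steers and 6.49 in bulls. Mast cell genes went the other way, with 6 of 8 past 2-fold lower in steers and 0 higher, CPA3, a mast cell protease, at 108 and 254 counts, and sums of 45.0 and 111 CPM. Of 3 neuroendocrine genes with at least 10 counts, SCG5 was higher, at 421 and 155 counts, and ENO2 lower, at 3 and 10, while CHGB, PCSK2, INSM1 and PTH were at 0 in both.

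Vessel markers were mostly within 2-fold, as were 81.7% of all genes. Among 9 endothelial genes 0 were past 2-fold, with a median log2 ratio of -0.19, TEK, the angiopoietin receptor, being at -0.66 (-0.87 to -0.45). Above 0 lay 3 of the 9, PECAM1 the highest at 0.16 (0.10 to 0.23). Among 9 smooth muscle and pericyte genes DES alone was past 2-fold, lower in steers at 3721 and 8207 counts, and the median was -0.37. ACTG2, a smooth muscle actin, was at -0.95 (-1.16 to -0.74), and CNN1 and ACTA2 were each at -0.66. In the other direction, 4 of these 9 genes lay above 0, TAGLN the highest at 0.45 (0.38 to 0.52). Fibroblast genes were past 2-fold higher in 4 of 9 (44.4%), with a median of 0.95, and 0 were lower, beside 6.73% and 11.5% of all genes. COL1A1, POSTN and SPARC lay close to the limit, at log2 ratios of 1.005, 1.02 and 1.08, and COL3A1 was at 1.27. The whole counting interval was past 2-fold for 2 of the 9. Of 11 adipocyte genes 3 were higher, CIDEA, THRSP and GPD1, and 1 lower, FABP4, with a median of 0.02. Of 12 skeletal muscle genes 1 was higher and 2 lower, with a median of -0.24. The adipocyte and muscle shares were 27.3% and 8.33% higher and 9.09% and 16.7% lower.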
